A study of Homo sapiens with 38 samples.

Results

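The 30 genes described here encode the enzymes of cholesterol synthesis and of the linked fatty acid pathway, the SREBP transcription factors that switch these enzymes on, the proteins that sense sterols and hold SREBPs in check, and 4 proteins of cholesterol transport and uptake. They were taken by gene symbol from the 58425 genes that had a transcript in the files, but the list was set with earlier results of these data known. All 30 were found and passed the filter on low counts in both fractions. RNA-seq was performed on nuclear and cytoplasmic RNA of HCT116 cells, an established human colon cancer line. Wild-type cells were compared with 4 knockout lines made from them by gene editing, without AGO1, without AGO2, without the pair of them (AGO1/2) or without the pair and AGO3 as well (AGO1/2/3), all grown in McCoy's 5A medium with serum. Argonaute (AGO) proteins carry miRNAs to their target RNAs. Each genotype gave 3 libraries per fraction, or 30 in all, made at passages 27, 28 and 29 for wild type, 6, 7 and 8 for AGO1, 8, 9 and 10 for AGO2, 9, 10 and 11 for AGO1/2, and 11, 12 and 14 for AGO1/2/3. Each genotype was 1 line, so clone, passage and genotype cannot be told apart, and the p-values measure the spread between passages of 1 line.

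Cholesterol is built from acetyl-CoA through mevalonate and squalene. The precursors of the SREBPs sit in the endoplasmic reticulum bound to SCAP, and when sterols are plentiful the INSIG proteins retain this complex there. When sterols run low, SCAP escorts the SREBP precursor to the Golgi, where proteases release its transcription factor domain, which enters the nucleus and turns on genes of sterol and fatty acid synthesis, INSIG1 among them. A surplus of cholesterol gives oxysterols, which activate the liver X receptors (LXR), and these switch on the exporters ABCA1 and ABCG1, the ubiquitin ligase MYLIP and SREBF1 itself. Introns of the SREBP genes also hold a pair of miRNAs, miR-33a and miR-33b, known to repress ABCA1.

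Wild-type libraries were the shallowest, with 39476205 to 43281746 estimated reads in the cytoplasm and 20431557 to 26536692 in the nucleus, against 66451720 to 79731793 and 31252459 to 54097984 in the knockout lines. Of 6 epithelial and colonic markers, EPCAM and CDH1 averaged lower in both fractions of the lines lacking more than 1 AGO gene, whereas the keratins KRT8 and KRT18 averaged higher in their nuclear RNA. Cytoplasmic EPCAM averaged 142 TPM (a level per length, scaled to 1 total in every library) in wild type, 44.1 in AGO1/2 and 52.0 in AGO1/2/3, and CDH1 averaged 12.3, 1.12 and 1.90 TPM. In nuclear RNA EPCAM averaged 98.1, 62.7 and 62.2 TPM, CDH1 21.3, 4.15 and 5.77, KRT8 498, 1210 and 976, and KRT18 369, 826 and 630. CDH1 was below its wild-type mean in the AGO1 and AGO2 lines too, at 4.67 and 7.41 TPM in the cytoplasm and 7.76 and 17.4 in the nucleus. Cytoplasmic KRT8 averaged 446, 337 and 483 TPM in wild type, AGO1/2 and AGO1/2/3, and KRT18 407, 309 and 375. CDX2 averaged 5.2, 3.2 and 2.73 TPM in the cytoplasm and 3.52, 3.27 and 2.72 in the nucleus of these groups. The 6 markers, mostly keratin RNA, summed to 971 to 1060 TPM in wild-type, 639 to 734 in AGO1/2 and 807 to 988 in AGO1/2/3 cytoplasm, and to 963 to 1030, 1990 to 2240 and 1570 to 1810 TPM in the nucleus, and their part in the results was not tested. The colonic marker VIL1 was near 0 in all libraries, reaching at most 0.0773 TPM, and 6 markers of fibroblasts, leukocytes, endothelium and hepatocytes summed to 0.681 to 6.49 TPM, with DCN at 0 throughout. In read counts the log2 change of cytoplasmic AGO1 RNA was -3.49 in the AGO1, -3.19 in the AGO1/2 and -3.29 in the AGO1/2/3 line. That of AGO2 RNA was -0.67 in the AGO2 line and 0.31 in the AGO1/2 line, and that of AGO3 RNA was 0.34 in the AGO1/2/3 line. Per length the AGO1/2 direction turned: cytoplasmic AGO2 averaged 36.0 TPM in wild type, 18.6 in AGO2, 28.9 in AGO1/2 and 27.2 in AGO1/2/3 cells. Cytoplasmic AGO3 averaged 8.39 TPM in wild type and 8.64 in AGO1/2/3 cells. Nuclear AGO3 averaged 20.5 and 14.7 TPM, with 14.6 to 15.0 in the other lines. RNA level thus checks the loss of AGO1 and not that of AGO2 or AGO3. The paper examined the AGO proteins of these lines by western blot. In bulk RNA, fewer cells expressing a gene and less RNA per cell cannot be told apart.

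Estimated reads were summed per gene and compared with edgeR, fitting the 15 cytoplasmic and the 15 nuclear libraries separately. Genes with an adjusted p of at most 0.05 (Benjamini-Hochberg) over all genes tested, 17605 in the cytoplasm and 18919 in the nucleus, are referred to as called. Per-library values below are CPM, counts scaled to library size by TMM factors within a fraction, listed in order of passage. Changes are log2 fold changes of knockout over wild type, with the standard error (SE). All 8 knockout comparisons share the 3 wild-type libraries of their fraction.

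Most sterol and SREBP genes were higher in the lines lacking more than 1 AGO gene. More of them were called in nuclear than in cytoplasmic RNA, as was also so over all genes. In the cytoplasm of AGO1/2/3 cells 24 of the 30 genes were called, all higher, where 38.7% of all genes tested were called and 18.6% were called higher. In the cytoplasm of AGO1/2 cells 18 were called higher and 2 lower, against 49.2% of all genes called, 23.9% higher and 25.4% lower. In the nucleus of AGO1/2/3 cells 29 were higher and none lower (all genes 29.1% higher, and 58.6% called in all). In the nucleus of AGO1/2 cells 28 were higher and none lower (all genes 32.9% higher, and 67.6% called in all). The single knockouts differed less from wild type. In AGO1 cells 12 were called higher and 2 lower in the cytoplasm (all genes 4.28% and 8.13%) and 20 higher and 2 lower in the nucleus (14.3% and 15.6%, or 29.9% in all). In AGO2 cells 8 were called higher in the cytoplasm (7.07%) and 23 in the nucleus (20.2%, or 40.2% with the lower calls), and none lower.

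The median change of the 30 genes was 0.45 in AGO1, 0.35 in AGO2, 0.60 in AGO1/2 and 0.96 in AGO1/2/3 cytoplasm, where the median over all genes lay between -0.01 and 0.00. In the nucleus the medians were 0.60, 0.58, 1.18 and 1.44, against -0.06 to -0.02 over all genes. MVK, IDI1, DHCR7 and INSIG1 were called higher in all 8 comparisons and INSIG2 in none. The cytoplasmic counts of the single knockouts rested on few libraries. The AGO1 count of 14 fell to 7 without AGO1 passage 6 and to 6 without AGO1 passage 7, and the AGO2 count of 8 fell to 5 without AGO2 passage 8, AGO2 passage 9 or wild-type passage 27. Leaving out any 1 library gave 16 to 22 calls in cytoplasmic AGO1/2, 21 to 24 in cytoplasmic AGO1/2/3, 26 to 28 in nuclear AGO1/2 and 28 to 30 in nuclear AGO1/2/3 cells.

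The number of genes called changed with the scale of the values. On TPM, where the whole library sums to a fixed total, the median over all genes itself lay at -0.08, -0.13, -0.20 and -0.13 in the cytoplasm of the 4 lines (in the order above), and the 10 genes with the most TPM held 55.2% of the cytoplasmic total in wild type against 63.6% in AGO1/2. With limma on log2(TPM + 1) the 30 genes gave 2 higher and 2 lower in cytoplasmic AGO1, 1 and 1 in AGO2, 10 and 6 in AGO1/2, and 18 and 1 in AGO1/2/3 cells, with medians of 0.30, 0.06, 0.07 and 0.53. In nuclear RNA the same test gave 12 higher and 4 lower, 10 and 1, 25 and 1, and 25 and 2, with medians of 0.36, 0.24, 0.93 and 1.06, where the medians over all genes were -0.17, -0.17, -0.07 and -0.16. The median of the 30 genes was thus above that of all genes on both scales in each of the 8 comparisons.

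**Figure D1:**
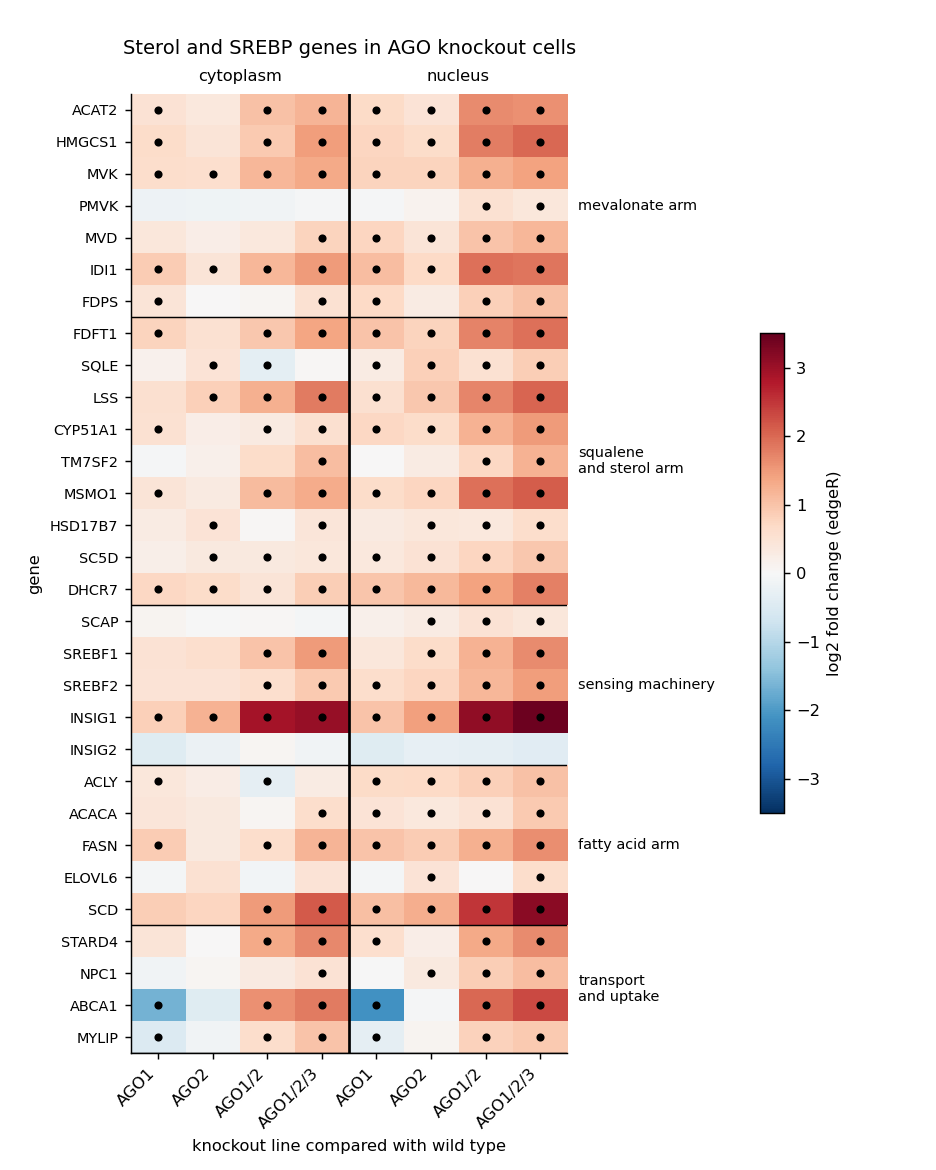
Heat map of the log2 fold change over wild type of the 30 genes (rows, by role) in the 4 knockout lines of each fraction (columns), with a dot where edgeR's adjusted p was at most 0.05. Of the 30 genes, 24 were called higher in cytoplasmic and 29 in nuclear AGO1/2/3 cells, with INSIG1 the largest at 3.04 and 3.44, whereas ABCA1 was lower by 1.66 and 2.11 in the AGO1 line; on the TPM scale 18 and 25 were called higher in AGO1/2/3 cells and 1 and 2 lower.

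The 5 genes that sense sterols gave 1, 1, 3 and 3 higher calls in the cytoplasm of the 4 lines, in the same order, and 2, 4, 4 and 4 in the nucleus, with none lower, and medians of 0.49, 0.48, 0.59 and 0.93 and of 0.40, 0.64, 1.16 and 1.47. Over all genes 4.28%, 7.07%, 23.9% and 18.6% were called higher in the cytoplasm and 14.3%, 20.2%, 32.9% and 29.1% in the nucleus. In cytoplasmic AGO1, AGO2 and AGO1/2 cells 20%, 20% and 60% of the 5 were called, near the 12.4%, 16.1% and 49.2% of all genes. INSIG1 changed more than any other of the 30 genes in cytoplasmic and nuclear AGO1/2 and AGO1/2/3 cells. INSIG1 (ENSG00000186480.13, chr7:155297776-155310235, plus strand, GRCh38) encodes a sterol-sensing anchor protein of the endoplasmic reticulum whose own gene is a classical SREBP target. In cytoplasmic RNA it stood at 18.0, 23.9 and 19.7 CPM in wild type, 38.5, 39.9 and 31.7 in AGO1, and 46.4, 52.1 and 46.0 in AGO2 cells. It reached 169.2, 107.3 and 185.2 CPM in AGO1/2 and 142.6, 197.8 and 167.1 CPM in AGO1/2/3 cells. Every knockout library lay above every wild-type library, and those of the lines lacking more than 1 AGO gene lay above those of the single knockouts. The log2 fold change was 0.84 (SE 0.181; adjusted p = 0.0079) in AGO1, 1.23 (SE 0.182; adjusted p = 0.000373) in AGO2, 2.91 (SE 0.19; adjusted p = 2.84e-08) in AGO1/2 and 3.04 (SE 0.191; adjusted p = 2.6e-08) in AGO1/2/3, the last being 8.24-fold.

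Nuclear INSIG1 followed the same order. It stood at 9.05, 12.3 and 12.1 CPM in wild type, 23.2, 23.3 and 20.4 in AGO1, and 29.6, 30.1 and 29.8 in AGO2 cells. In AGO1/2 cells it reached 105.0, 60.7 and 117.8 CPM and in AGO1/2/3 cells 102.0, 153.0 and 105.4 CPM. No group overlapped wild type, and AGO1/2 passage 10 was the lowest library of the lines lacking more than 1 AGO gene, as it was in the cytoplasm. The log2 fold changes were 1.01, 1.43, 3.09 and 3.44 in the 4 lines in the same order (SE 0.222 to 0.226; adjusted p = 0.00362, 0.000165, 1.49e-08 and 9.03e-09). All 8 INSIG1 calls were kept with any 1 library left out.

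INSIG2, the paralog that retains SCAP in the same way, was the 1 gene of the 30 called in no comparison with wild type. In cytoplasmic RNA its values were 11.1, 9.54 and 17.9 CPM in wild type, 8.88, 9.63 and 10.1 in AGO1, and 10.4, 11.7 and 11.3 in AGO2 cells. The AGO1/2 libraries held 13.2, 14.6 and 12.6 CPM and the AGO1/2/3 libraries 11.6, 11.6 and 12.3 CPM. Wild-type passage 29 lay above all of these and the other wild-type libraries lay near or below them, so the groups overlapped. The log2 fold changes were -0.43, -0.21, 0.07 and -0.12 in the cytoplasm and -0.43, -0.29, -0.31 and -0.39 in the nucleus. Single wild-type libraries decided these values. Without cytoplasmic passage 29 the AGO1/2 change was 0.38 (adjusted p = 0.00314), and without nuclear passage 27 the AGO1/2/3 change was -0.51 (adjusted p = 0.0198).

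SREBF1 (ENSG00000072310.18, chr17:17810399-17837002, minus strand) encodes SREBP-1, the form more closely tied to fatty acid synthesis, and responds to LXR as well as to SREBPs. Its cytoplasmic values were 53.3, 59.9 and 84.1 CPM in wild type, 80.6, 91.0 and 106.5 in AGO1, and 95.7, 96.0 and 107.1 in AGO2 cells. They were 131.5, 86.6 and 176.2 CPM in AGO1/2 and 178.7, 176.9 and 199.3 CPM in AGO1/2/3 cells. Wild-type passage 29 was the highest of its group and overlapped the AGO1 group. SREBF1 rose by a log2 value of 1.0 in AGO1/2 (SE 0.209; adjusted p = 0.00113) and 1.49 in AGO1/2/3 cells (SE 0.211; adjusted p = 6.5e-05). The changes in AGO1 (0.50, adjusted p = 0.137) and AGO2 (0.60, adjusted p = 0.066) did not pass, but both passed without wild-type passage 29, at 0.71 (adjusted p = 0.0445) and 0.82 (adjusted p = 0.0173).

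Nuclear SREBF1 stood at 77.6, 73.6 and 128.9 CPM in wild type, 107.1 and 140.0 in AGO1 passages 6 and 8 with passage 7 between them, and 132.5, 151.0 and 153.1 in AGO2 cells. It stood at 223.7, 152.9 and 272.0 CPM in AGO1/2 and 291.5, 297.4 and 299.8 CPM in AGO1/2/3 cells. Again passage 29 was the highest wild-type library and reached into the AGO1 range. The changes were 0.40 (adjusted p = 0.147), 0.64 (adjusted p = 0.0198), 1.21 (adjusted p = 8.22e-05) and 1.67 (SE 0.205; adjusted p = 5.57e-06). The nuclear AGO2 call was lost without AGO2 passage 10, wild-type passage 27 or wild-type passage 28 (adjusted p = 0.0562, 0.0623 and 0.0689), and the AGO1 change passed without wild-type passage 29, at 0.72 (adjusted p = 0.00551).

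SREBF2 (ENSG00000198911.13, chr22:41833105-41907306, plus strand) encodes SREBP-2, the main driver of cholesterol synthesis. In cytoplasmic RNA it stood at 91.0, 106.0 and 154.6 CPM in wild type, 148.4, 168.3 and 176.0 in AGO1, and 156.9, 153.1 and 180.0 in AGO2 cells. The AGO1/2 libraries held 170.1, 130.2 and 229.5 CPM and the AGO1/2/3 libraries 198.0, 224.4 and 246.1 CPM. Passage 29 was again the highest in wild type, and of the 4 knockout groups the AGO1/2/3 group was the one that did not overlap wild type. The change was 0.93 in AGO1/2/3 cells (SE 0.196; adjusted p = 0.00172) and 0.59 in AGO1/2 cells (adjusted p = 0.0209). The AGO1/2 call was lost without AGO1/2 passage 11 (0.35; adjusted p = 0.135), wild-type passage 27 (0.44; adjusted p = 0.0915) or wild-type passage 28 (0.53; adjusted p = 0.0736). In single knockouts it was 0.49 (adjusted p = 0.12) and 0.48 (adjusted p = 0.113), and without wild-type passage 29 it was 0.74 (adjusted p = 0.0177) and 0.73 (adjusted p = 0.0134).

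In nuclear RNA SREBF2 passed in all 4 lines. Its values were 75.3, 89.2 and 133.8 CPM in wild type, 139.2, 150.8 and 162.2 in AGO1, and 162.2, 163.8 and 174.7 in AGO2 cells. They were 217.9, 168.3 and 278.0 CPM in AGO1/2 and 249.0, 293.2 and 281.8 CPM in AGO1/2/3 cells. Each nuclear knockout library lay above every wild-type library. The log2 fold changes were 0.60 (adjusted p = 0.0216), 0.75 (adjusted p = 0.00442), 1.16 (adjusted p = 4.8e-05) and 1.47 (SE 0.184; adjusted p = 6.8e-06). The nuclear AGO1 call was lost without AGO1 passage 7, AGO1 passage 8, wild-type passage 27 or wild-type passage 28, with an adjusted p of up to 0.072.

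The promoter of SREBF2 holds the one match among the 35 promoters of the 30 genes to the sterol regulatory element, the sequence at which SREBPs bind. It is shown because SREBF2 is itself a known SREBP target, with the 10 bases of the element in capitals. It lies at chr22:41832961-41832990 on the plus strand (GRCh38.p14, RefSeq promoters from 250 bases before to 50 after each start), beginning 134 bases before the start.
SREBF2 element: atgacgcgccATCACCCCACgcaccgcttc
On either strand these 10 letters occur in 16 of 35116 promoters (0.0456%), and the looser TCACNCCAC in 396. Sterol elements vary more than these letters allow, and the absence of a match in the other promoters says only that these letters are not in those windows.

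SCAP, the escort of the SREBP precursors, differed little from wild type in cytoplasmic read counts. Cytoplasmic values were 59.3, 56.7 and 51.3 CPM in wild type, 58.4, 57.6 and 61.2 in AGO1, and 57.7, 53.6 and 53.2 in AGO2 cells. The AGO1/2 libraries held 56.6, 61.5 and 55.6 CPM and the AGO1/2/3 libraries 52.8, 51.6 and 55.6 CPM. All groups overlapped, and the log2 fold changes of 0.08, -0.02, 0.05 and -0.06 did not pass (adjusted p = 0.453 to 0.851). Nuclear SCAP stood at 34.8, 34.1 and 40.0 CPM in wild type, 40.4, 38.8 and 44.1 in AGO1, and 46.1, 45.5 and 42.1 in AGO2 cells. The nuclear AGO1/2 libraries held 51.3, 53.6 and 50.9 CPM and the AGO1/2/3 libraries 47.7, 47.8 and 48.3 CPM, all above wild type. These changes were 0.18 (adjusted p = 0.0604), 0.30 (adjusted p = 0.0031), 0.52 (adjusted p = 8.08e-06) and 0.40 (adjusted p = 0.00013) in read counts. They turned sign per length: with limma on log2(TPM + 1) nuclear SCAP was -0.06 in AGO1/2 and -0.32 in AGO1/2/3 cells (limma adjusted p = 0.0216). Retained-intron transcripts carried 44.4% of nuclear SCAP TPM in wild type (SD 11.4, n = 3) and 21.1% and 19.3% in AGO1/2 and AGO1/2/3 cells, and their part in the turn was not tested.

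**Figure D2:**
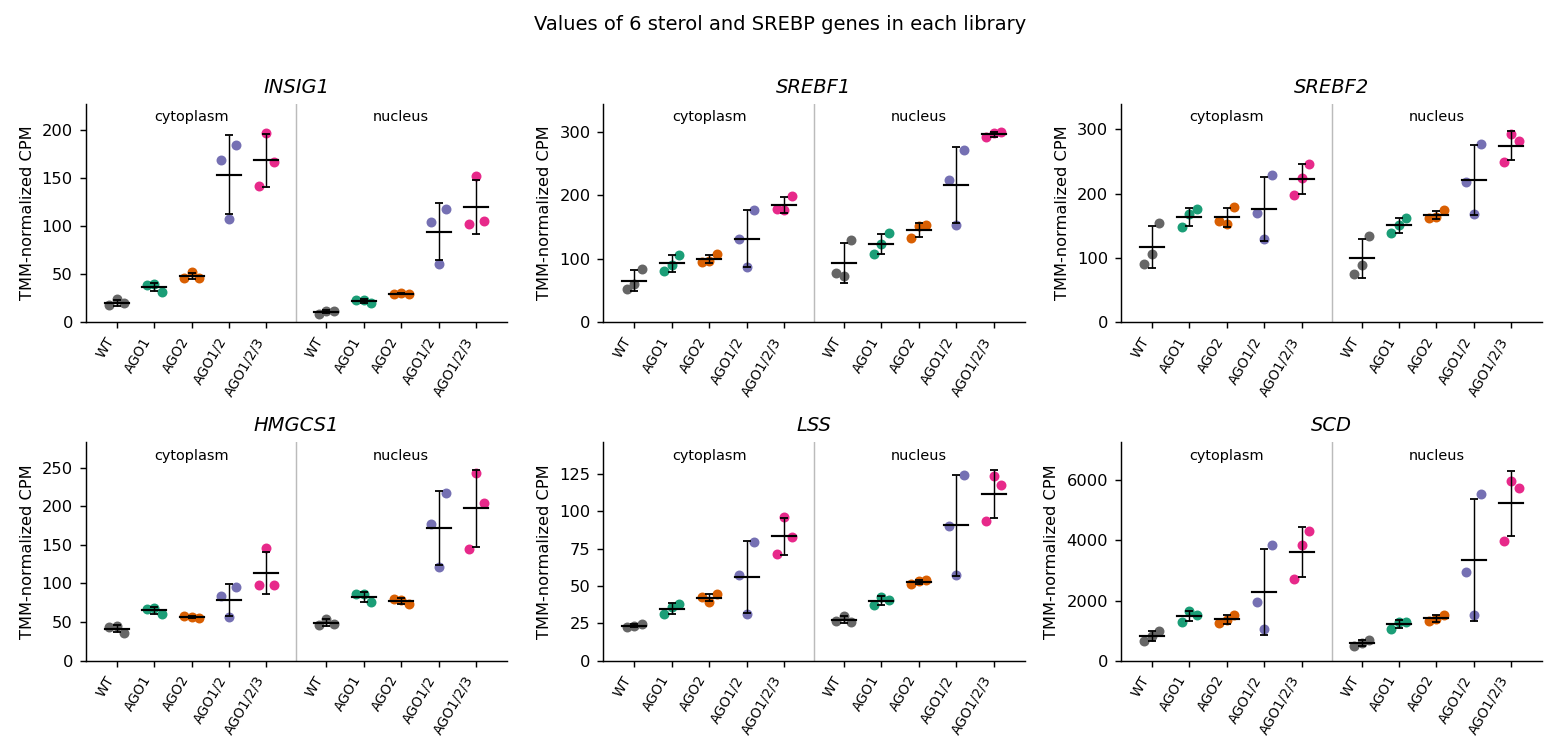
TMM-scaled CPM (linear axis from 0) of INSIG1, SREBF1, SREBF2, HMGCS1, LSS and SCD in each library, with the cytoplasmic libraries on the left and the nuclear ones on the right of each panel, and the mean and SD of the 3 libraries drawn as a line and bars over the points (WT, wild type). INSIG1 rose from 18.0 to 23.9 CPM in cytoplasmic wild type to 142.6 to 197.8 CPM in AGO1/2/3, and in the AGO1/2 line the lowest of the 3 points is passage 10 for all 6 genes.

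The 7 enzymes of the mevalonate arm, which lead from acetyl-CoA to farnesyl diphosphate, gave 5, 2, 4 and 6 higher calls in the cytoplasm of the 4 lines, in the same order, and 6, 5, 7 and 7 in the nucleus, with none lower. Their median changes were 0.51, 0.37, 0.92 and 1.18 in the cytoplasm and 0.74, 0.47, 1.26 and 1.41 in the nucleus, and the medians stayed above 0 on the TPM scale. Shares of all genes called higher were 4.28%, 7.07%, 23.9% and 18.6% in the cytoplasm and 14.3%, 20.2%, 32.9% and 29.1% in the nucleus. For cytoplasmic AGO1/2 cells 57.1% of the 7 were called, near the 49.2% of all genes called in either direction. HMGCS1 (chr5:43287470-43313512, minus strand), the synthase that makes HMG-CoA, had a cytoplasmic level of 43.8, 44.7 and 36.2 CPM in wild type, 67.4, 67.9 and 60.1 in AGO1, and 58.2, 56.8 and 55.4 in AGO2 cells. It was at 84.0, 56.1 and 95.9 CPM in AGO1/2 and 97.4, 145.4 and 98.1 CPM in AGO1/2/3 cells. No knockout library overlapped wild type, while AGO1/2 passage 10 fell within the range of the single knockouts. HMGCS1 rose by 0.92 in AGO1/2 (SE 0.178; adjusted p = 0.000619) and by 1.45 in AGO1/2/3 cells (SE 0.18; adjusted p = 1.98e-05). The AGO1 call (0.65; adjusted p = 0.0278) was lost without AGO1 passage 6, AGO1 passage 7 or wild-type passage 29 (adjusted p = 0.0855, 0.0896 and 0.0905), and the AGO2 change was 0.45 (adjusted p = 0.102).

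Nuclear HMGCS1 stood at 46.6, 54.5 and 47.1 CPM in wild type, 86.0, 86.3 and 75.4 in AGO1, and 80.5, 78.9 and 72.8 in AGO2 cells. It stood at 177.4, 121.5 and 217.0 CPM in AGO1/2 and 144.4, 242.7 and 204.6 CPM in AGO1/2/3 cells. The 3 tiers of wild type, single knockouts and the lines lacking more than 1 AGO gene did not overlap. The changes were 0.74 (adjusted p = 0.00806), 0.65 (adjusted p = 0.0125), 1.80 (SE 0.19; adjusted p = 7.63e-07) and 2.0 (SE 0.191; adjusted p = 4.06e-07), the last being 3.99-fold.

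IDI1, which isomerizes isopentenyl diphosphate, had cytoplasmic values of 28.9, 32.9 and 27.3 CPM in wild type, 58.6, 58.4 and 49.3 in AGO1, and 40.8, 41.4 and 39.1 in AGO2 cells. They were 66.9, 50.7 and 80.0 CPM in AGO1/2 and 74.6, 96.6 and 80.7 CPM in AGO1/2/3 cells. All knockout libraries were above wild type, and the AGO1 libraries were all above those of AGO2. IDI1 rose by 0.90 in AGO1 (SE 0.142; adjusted p = 0.000937), 1.15 in AGO1/2 (adjusted p = 1.24e-05) and 1.5 in AGO1/2/3 cells (SE 0.143; adjusted p = 1.65e-06). Its AGO2 call (0.45; adjusted p = 0.0458) was kept only where wild-type passage 28 was the library left out, and otherwise had an adjusted p of up to 0.119. Nuclear IDI1 stood at 23.0, 29.8 and 20.2 CPM in wild type, 56.4, 52.1 and 46.4 in AGO1, and 41.6, 40.0 and 36.9 in AGO2 cells. Nuclear AGO1/2 libraries held 96.3, 74.8 and 109.1 CPM and AGO1/2/3 libraries 71.0, 106.6 and 92.5 CPM, both clear of wild type. The changes were 1.08, 0.70, 1.94 and 1.89 (SE 0.168 in both lines lacking more than 1 AGO gene; adjusted p = 0.000278, 0.00405, 9.63e-08 and 2.02e-07).

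Of the other mevalonate enzymes, ACAT2, which joins acetyl-CoA units, and MVK, mevalonate kinase, rose in cytoplasmic AGO1/2/3 cells by 1.18 and 1.32. MVD, the decarboxylase, changed by 0.78 there and by 1.17 in the nucleus, and both values passed. FDPS, farnesyl diphosphate synthase, rose by 0.53 in the cytoplasm and 1.02 in the nucleus of AGO1/2/3 cells. FDPS has processed pseudogenes among which Salmon could divide reads, so its level is less certain. PMVK, phosphomevalonate kinase, was the 1 mevalonate enzyme not called in any cytoplasmic comparison, with changes of -0.16, -0.16, -0.12 and -0.04. On the TPM scale PMVK was called lower in all 4 cytoplasmic comparisons, at -0.28, -0.35, -0.48 and -0.27, while in nuclear read counts it rose by 0.52 in AGO1/2 and 0.39 in AGO1/2/3 cells.

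The 9 enzymes of the squalene and sterol arm gave 4, 5, 6 and 8 higher calls in the cytoplasm of the 4 lines, in the same order, and 7, 8, 9 and 9 in the nucleus, with SQLE in cytoplasmic AGO1/2 cells the 1 lower call. Their medians were 0.46, 0.47, 0.46 and 0.85 in the cytoplasm and 0.55, 0.74, 1.21 and 1.49 in the nucleus, of which the cytoplasmic AGO1/2 median turned to -0.04 on the TPM scale. Of all genes, 4.28%, 7.07%, 23.9% and 18.6% were called higher in the cytoplasm and 14.3%, 20.2%, 32.9% and 29.1% in the nucleus. LSS, lanosterol synthase, closes the sterol ring. In cytoplasmic RNA it stood at 22.6, 23.4 and 24.7 CPM in wild type, 31.0, 35.6 and 37.8 in AGO1, and 42.8, 39.6 and 44.3 in AGO2 cells. Its AGO1/2 libraries held 57.2, 31.2 and 79.3 CPM, the widest spread of its groups, and its AGO1/2/3 libraries 71.2, 95.9 and 82.5 CPM. AGO1/2 passage 10 fell to the level of the AGO1 line but stayed above wild type. LSS rose by 1.25 in AGO1/2 (adjusted p = 0.000426) and 1.82 in AGO1/2/3 cells (SE 0.234; adjusted p = 2.69e-05), or 3.54-fold. In AGO1 cells the change was 0.56 (adjusted p = 0.125), and the AGO2 call (0.84; adjusted p = 0.0223) was lost without AGO2 passage 8, AGO2 passage 10, wild-type passage 27 or wild-type passage 28, with an adjusted p of up to 0.0647.

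Nuclear LSS stood at 26.6, 30.1 and 25.6 CPM in wild type, 37.2, 42.8 and 40.6 in AGO1, and 51.3, 53.5 and 53.9 in AGO2 cells. It stood at 90.1, 57.0 and 124.1 CPM in AGO1/2 and 93.4, 123.7 and 117.7 CPM in AGO1/2/3 cells. The groups stood in the order of wild type, AGO1, AGO2 and the lines lacking more than 1 AGO gene, without overlap between these steps. The changes were 0.55 (adjusted p = 0.0489), 0.95 (adjusted p = 0.00158), 1.72 (adjusted p = 2.03e-06) and 2.02 (SE 0.201; adjusted p = 6.03e-07), and the AGO1 call was lost with any 1 of the 6 libraries left out, with an adjusted p of up to 0.126.

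FDFT1, squalene synthase, commits farnesyl diphosphate to sterols. Its cytoplasmic values were 61.9, 70.0 and 62.1 CPM in wild type, 112.5, 117.2 and 103.8 in AGO1, and 102.4, 87.2 and 90.2 in AGO2 cells. They were 135.2, 82.1 and 158.9 CPM in AGO1/2 and 144.4, 201.4 and 160.9 CPM in AGO1/2/3 cells. Again AGO1/2 passage 10 lay below the single knockouts, and every knockout library lay above wild type. FDFT1 rose by 0.78 in AGO1 (adjusted p = 0.0121), 0.96 in AGO1/2 (adjusted p = 0.000561) and 1.38 in AGO1/2/3 cells (SE 0.184; adjusted p = 3.75e-05), and was 0.53 in AGO2 cells (adjusted p = 0.0638). Nuclear FDFT1 stood at 47.4, 53.9 and 46.8 CPM in wild type, 99.3, 105.8 and 91.2 in AGO1, and 85.6, 86.5 and 82.0 in AGO2 cells. In AGO1/2 cells it held 171.0, 118.8 and 207.7 CPM and in AGO1/2/3 cells 147.3, 214.0 and 201.2 CPM, all above the single knockouts. The changes were 1.0, 0.78, 1.75 and 1.93 (adjusted p = 0.000459, 0.00173, 2.76e-07 and 1.63e-07).

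MSMO1, the C4 methyl sterol oxidase, had the largest nuclear change of the 9 enzymes, at 1.91 in AGO1/2 and 2.12 in AGO1/2/3 cells (adjusted p = 9.35e-08), or 4.35-fold. DHCR7, which reduces 7-dehydrocholesterol to cholesterol, rose in all 8 comparisons, from 0.46 in cytoplasmic AGO1/2 to 1.76 in nuclear AGO1/2/3 cells. CYP51A1, the lanosterol demethylase, rose by 0.56 in cytoplasmic and 1.49 in nuclear AGO1/2/3 cells. TM7SF2, a sterol reductase, rose by 1.09 and 1.21, and SC5D, the desaturase, by 0.41 and 0.93. HSD17B7, a sterol keto reductase with a close pseudogene that makes its reads less certain, rose by 0.41 and 0.62.

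SQLE, squalene epoxidase, is a rate-limiting enzyme of the pathway, and in the cytoplasm it was lower in AGO1/2 cells. Its cytoplasmic values were 52.6, 54.1 and 51.0 CPM in wild type, 61.0, 59.7 and 53.8 in AGO1, and 73.3, 71.4 and 74.3 in AGO2 cells. The AGO1/2 libraries held 40.7, 33.8 and 49.9 CPM, all below wild type, and the AGO1/2/3 libraries 52.2, 57.9 and 53.0 CPM, which overlapped it. SQLE rose by 0.47 in AGO2 (adjusted p = 0.00734) and fell by 0.34 in AGO1/2 cells (adjusted p = 0.0152), a call lost without AGO1/2 passage 9 or AGO1/2 passage 10 (adjusted p = 0.0636 and 0.0725). Nuclear SQLE rose in all 4 lines, by 0.28 (adjusted p = 0.044), 0.83 (adjusted p = 1.86e-05), 0.53 (adjusted p = 0.000208) and 0.87 (adjusted p = 2.29e-06).

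CCAAT boxes, which bind NF-Y, a known partner of SREBPs, were common in these promoters. The letters CCAAT, which read ATTGG on the opposite strand, were found on either strand in 22 of the 35 promoters, from 18 genes, where 34.6% of all 35116 promoters hold them. The E-box CACGTG was found in 6 of the 35, against 7.26% of all. The CCAAT boxes of 4 genes described here are shown with the box in capitals, each read along its gene, from RefSeq promoters on GRCh38.p14. They lie at chr7:155297698-155297722 (plus strand), chr5:43313498-43313522 (minus), chr21:46228910-46228934 (minus) and chr10:100347037-100347061 (plus).
INSIG1 box: ccggcctcccATTGGttgcggccgc
HMGCS1 box: accggccgcgATTGGctgtgggagc
LSS box: cggcgctctgATTGGttgcgtgggc
SCD box: ttcccttcggCCAATgacgagccgg
A match is a match of letters, and no binding was measured here.

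The 5 fatty acid genes gave 2, 0, 2 and 3 higher calls in the cytoplasm of the 4 lines, in the same order, and 4, 5, 4 and 5 in the nucleus, with ACLY in cytoplasmic AGO1/2 cells the 1 lower call. Among all genes 4.28%, 7.07%, 23.9% and 18.6% were called higher in the cytoplasm and 14.3%, 20.2%, 32.9% and 29.1% in the nucleus. With both directions counted, 60% of the 5 were called in cytoplasmic AGO1/2 cells, near the 49.2% of all genes. SCD (ENSG00000099194.6, chr10:100347233-100364826, plus strand), the desaturase that makes oleate, had the highest cytoplasmic level per length of the 30 genes in wild type, at 113 TPM. Its cytoplasmic values were 653.2, 810.7 and 987.7 CPM in wild type, 1297, 1645 and 1523 in AGO1, and 1243, 1347 and 1534 in AGO2 cells. They were 1950, 1065 and 3864 CPM in AGO1/2 and 2709, 3854 and 4303 CPM in AGO1/2/3 cells. Within AGO1/2 the libraries spanned more than the distance from wild type to the single knockouts, and still none overlapped wild type. SCD rose by 1.49 in AGO1/2 (SE 0.332; adjusted p = 0.00182) and 2.15 in AGO1/2/3 cells (SE 0.339; adjusted p = 0.00017), or 4.43-fold. In the single knockouts it was 0.86 (adjusted p = 0.101) and 0.75 (adjusted p = 0.138).

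Nuclear SCD had values of 488.0, 593.3 and 675.1 CPM in wild type, 1063, 1295 and 1276 in AGO1, and 1321, 1379 and 1531 in AGO2 cells. It had 2967, 1524 and 5544 CPM in AGO1/2 and 3995, 5987 and 5731 CPM in AGO1/2/3 cells. Every knockout library was above wild type. The changes were 1.05 (adjusted p = 0.019), 1.27 (adjusted p = 0.00464), 2.51 (SE 0.324; adjusted p = 6.13e-06) and 3.16 (SE 0.333; adjusted p = 1.13e-06), the last being 8.95-fold. The AGO1 call was lost without AGO1 passage 7 or wild-type passage 27 (adjusted p = 0.0554 and 0.0571).

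FASN, fatty acid synthase, had cytoplasmic values of 724.8, 821.9 and 758.4 CPM in wild type, 1339, 1437 and 1515 in AGO1, and 1040, 838.8 and 1066 in AGO2 cells. It had 1130, 669.3 and 1750 CPM in AGO1/2 and 1426, 1899 and 1896 CPM in AGO1/2/3 cells. AGO1/2 passage 10 lay below all wild-type libraries, so that group overlapped wild type. FASN rose by 1.18 in AGO1/2/3 cells (SE 0.239; adjusted p = 0.00127). Its AGO1 call (0.90; adjusted p = 0.0234) was kept only without wild-type passage 28, and its AGO1/2 call (0.62; adjusted p = 0.0412) only without AGO1/2 passage 10, and without AGO1/2 passage 11 it was 0.22 (adjusted p = 0.347). The AGO2 change was 0.35 (adjusted p = 0.351). Nuclear FASN stood at 882.6, 832.2 and 647.8 CPM in wild type, 1492, 1653 and 1600 in AGO1, and 1520, 1475 and 1394 in AGO2 cells. It stood at 1800, 1264 and 2497 CPM in AGO1/2 and 2093, 2689 and 2568 CPM in AGO1/2/3 cells, and no nuclear knockout library overlapped wild type. These changes were 1.01, 0.89, 1.24 and 1.64 (adjusted p = 0.000857, 0.00124, 2.44e-05 and 2.27e-06).

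ACLY, which makes cytosolic acetyl-CoA from citrate, had the same signs as SQLE in AGO1/2 cells. Cytoplasmic ACLY was at 308.7, 311.9 and 279.3 CPM in wild type and 248.9, 190.4 and 278.6 CPM in AGO1/2 cells, where it fell by 0.33 (adjusted p = 0.0315). All AGO1/2 libraries were below wild type, but the call was lost without AGO1/2 passage 9, AGO1/2 passage 10, wild-type passage 27 or wild-type passage 28. In the nucleus ACLY rose by 0.85 in AGO1/2 (adjusted p = 5.07e-06) and 1.04 in AGO1/2/3 cells (adjusted p = 9.51e-07). ACACA, acetyl-CoA carboxylase, rose by 0.63 in cytoplasmic and 0.91 in nuclear AGO1/2/3 cells, and ELOVL6, a fatty acid elongase, by 0.60 in nuclear AGO1/2/3 cells, with 0.47 and no call in the cytoplasm. The median of the 5 genes in cytoplasmic AGO1/2 cells was 0.06 and turned to -0.39 on the TPM scale.

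The 4 transport and uptake genes gave 3 and 4 higher calls in cytoplasmic and 4 and 4 in nuclear AGO1/2 and AGO1/2/3 cells, but 2 lower calls, ABCA1 and MYLIP, in each fraction of AGO1 cells. Their medians were -0.29, -0.06, 0.96 and 1.33 in the cytoplasm and -0.16, 0.17, 1.09 and 1.36 in the nucleus, of which the nuclear AGO2 median turned to -0.08 on the TPM scale. The shares of all genes called higher were 23.9% and 18.6% in cytoplasmic and 32.9% and 29.1% in nuclear AGO1/2 and AGO1/2/3 cells. In AGO1 cells 8.13% and 15.6% of all genes were called lower in the cytoplasm and nucleus. ABCA1 (ENSG00000165029.17, chr9:104781006-104928155, minus strand), the LXR-controlled exporter of cholesterol to apolipoprotein acceptors, was the lowest of the 30 genes per length, at 0.17 TPM in cytoplasmic wild type. Its cytoplasmic values were 1.97, 1.91 and 3.53 CPM in wild type, 0.459, 0.845 and 1.03 in AGO1, and 1.39, 2.0 and 2.16 in AGO2 cells. The AGO1/2 libraries held 6.64, 5.90 and 9.96 CPM and the AGO1/2/3 libraries 8.98, 7.82 and 9.27 CPM. All AGO1 libraries lay below wild type, the AGO2 libraries overlapped it, and both lines lacking more than 1 AGO gene lay above it. ABCA1 fell by 1.66 in AGO1 (SE 0.316; adjusted p = 0.00343) and rose by 1.6 in AGO1/2 (SE 0.284; adjusted p = 0.0003) and 1.81 in AGO1/2/3 cells (adjusted p = 0.00016). The AGO2 change was -0.42 (adjusted p = 0.375).

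Nuclear ABCA1 stood at 3.24, 4.94 and 7.73 CPM in wild type, 0.910, 1.24 and 1.47 in AGO1, and 3.92, 5.51 and 5.76 in AGO2 cells. It stood at 20.0, 16.5 and 26.2 CPM in AGO1/2 and 28.2, 24.2 and 25.6 CPM in AGO1/2/3 cells. The groups fell in the same places as in the cytoplasm. ABCA1 fell by 2.11 in AGO1 cells (SE 0.317; adjusted p = 0.000226), and rose by 2.0 in AGO1/2 (adjusted p = 3.13e-06) and 2.31 in AGO1/2/3 cells (SE 0.242; adjusted p = 1.07e-06), with -0.05 in AGO2 cells (adjusted p = 0.902). These 6 ABCA1 calls were kept with any 1 library left out. The estimated reads behind them were few in AGO1 cells, 34 to 80 a library in the cytoplasm and 28 to 45 in the nucleus, against 81 to 154 and 92 to 172 in wild type. Between the single knockouts ABCA1 was higher in AGO2 than in AGO1 cells, by 1.24 in the cytoplasm (adjusted p = 0.00886) and 2.06 in the nucleus (adjusted p = 0.000155).

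The 3′ UTR of ABCA1 is shown for its matches to the miR-33 seed, because miR-33 acts through AGO proteins and is encoded inside the SREBP genes. Both mature miRNAs (RefSeq, GRCh38.p14) share the seed in capitals, bases 2 to 8. MIR33A lies at chr22:41900949-41900969 (plus strand) within SREBF2, and MIR33B at chr17:17813897-17813916 (minus strand) within SREBF1. CAATGCA, which pairs with this seed and is in capitals in the target sites, occurs in 1614 of 19229 annotated 3′ UTRs (8.39%) and in 4 of those of the 30 genes, with 4 matches in ABCA1 and 1 each in LSS, NPC1 and SCAP. Of the ABCA1 matches, 3 lie close together at positions 135, 140 and 150 of the 3′ UTR and the other at 1475, and 1 of the cluster (chr9:104784161-104784190, minus strand) and the distant one (chr9:104782826-104782855, minus strand) are shown.
miR-33a-5p: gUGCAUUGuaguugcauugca
miR-33b-5p: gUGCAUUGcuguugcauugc
ABCA1 near site: tgatactattcaatgCAATGCAattcaatg
ABCA1 far site: tttttttaattgcaaCAATGCAaaagccaa
miRNAs were not measured in these libraries, and a link between these matches and the changes was not tested. In cytoplasmic AGO1/2/3 cells the changes of the 4 genes with a match were 1.81 for ABCA1, 1.82 for LSS, 0.50 for NPC1 and -0.06 for SCAP.

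MYLIP, the LXR-induced ubiquitin ligase that degrades lipoprotein receptors, was lower in AGO1 cells and higher in the lines lacking more than 1 AGO gene. Its cytoplasmic values were 7.53, 8.31 and 9.38 CPM in wild type, 5.72, 6.18 and 6.24 in AGO1, and 6.91, 7.5 and 8.55 in AGO2 cells. It held 11.7, 10.4 and 16.6 CPM in AGO1/2 and 16.9, 16.6 and 16.6 CPM in AGO1/2/3 cells. The AGO1 libraries lay below wild type and those of the lines lacking more than 1 AGO gene above it. MYLIP rose by 0.61 in AGO1/2 (adjusted p = 0.00263) and 0.99 in AGO1/2/3 cytoplasm (SE 0.144; adjusted p = 8.5e-05), and by 0.80 (adjusted p = 2.96e-06) and 0.92 (SE 0.0966; adjusted p = 1.16e-06) in the nucleus. It fell in AGO1 cells by 0.48 in the cytoplasm (adjusted p = 0.0479), kept only without wild-type passage 27, and by 0.31 in the nucleus (adjusted p = 0.0322), kept only without wild-type passage 28.

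**Figure D3:**
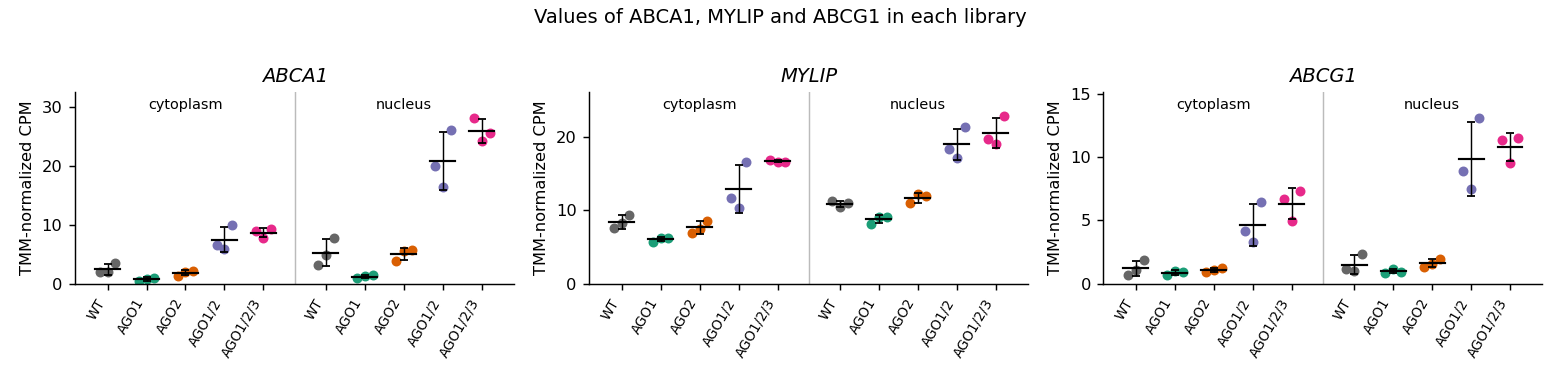
TMM-scaled CPM (linear axis from 0) in each library of ABCA1 and MYLIP and of the exporter ABCG1, which is not among the 30 genes, with cytoplasmic libraries on the left and nuclear ones on the right of each panel and the mean and SD of 3 libraries. ABCA1 in AGO1 cells lies below all wild-type libraries in both fractions (0.459 to 1.03 CPM against 1.91 to 3.53 CPM in the cytoplasm), and all 3 genes lie above wild type in AGO1/2 and AGO1/2/3 cells.

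STARD4, which carries cholesterol between membranes, had cytoplasmic values of 16.3, 19.2 and 31.1 CPM in wild type, 28.3, 31.9 and 31.1 in AGO1, and 20.6, 25.9 and 21.2 in AGO2 cells. They were 52.7, 45.4 and 67.6 CPM in AGO1/2 and 66.7, 70.8 and 75.6 CPM in AGO1/2/3 cells. Wild-type passage 29 lay among the AGO1 libraries and above those of AGO2, and both lines lacking more than 1 AGO gene lay above all the rest. STARD4 rose by 1.31 in AGO1/2 (adjusted p = 6.52e-05) and 1.68 in AGO1/2/3 cells (SE 0.197; adjusted p = 1.17e-05). In AGO1 cells it was 0.46 (adjusted p = 0.143), or 0.78 without wild-type passage 29 (adjusted p = 0.00424), and in AGO2 cells 0.02. Nuclear STARD4 stood at 21.0, 24.7 and 33.8 CPM in wild type, 38.6, 40.5 and 40.6 in AGO1, and 29.3, 31.2 and 32.6 in AGO2 cells. In AGO1/2 and AGO1/2/3 cells it stood at 66.4, 49.5 and 83.4 CPM and at 75.8, 84.8 and 89.5 CPM, clear of every other group. The nuclear changes were 0.59 (adjusted p = 0.0161, or 0.0582 without wild-type passage 27), 0.23 (adjusted p = 0.3, or 0.0301 without wild-type passage 29), 1.33 (adjusted p = 5.29e-06) and 1.66 (SE 0.17; adjusted p = 8.57e-07). NPC1, the lysosomal cholesterol exporter, rose by 0.50 in cytoplasmic and 1.07 in nuclear AGO1/2/3 cells.

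The single knockouts were compared directly to ask whether the loss of AGO1 and of AGO2 differed for these genes. In the cytoplasm 5 of the 30 were called, against 26.1% of all genes: ABCA1 (1.24), ELOVL6 (0.60) and SQLE (0.33) were higher in AGO2 cells, and IDI1 (-0.46) and FDPS (-0.44) lower. In the nucleus 6 were called, against 26.4% of all genes. ABCA1 (2.06), ELOVL6 (0.55), SQLE (0.55), MYLIP (0.41) and NPC1 (0.36) were higher in AGO2 cells, and FDPS (-0.41) lower. The counts fell to 2 without AGO1 passage 6, AGO1 passage 7 or any 1 AGO2 library and to 3 without AGO1 passage 8 in the cytoplasm, and to 3 without AGO1 passage 6 or AGO2 passage 10 in the nucleus. The other genes did not pass in this comparison, which does not show that they were equal.

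AGO1/2/3 and AGO1/2 cells differ by the further loss of AGO3. FDPS (0.47; adjusted p = 0.0353), SQLE (0.39; adjusted p = 0.0488) and ACLY (0.61; adjusted p = 0.0198) were called higher in cytoplasmic AGO1/2/3 cells, 3 of 30 against 4.95% of all genes, and the median difference of the 30 genes was 0.38 against 0.00 over all genes. In the nucleus none was called by edgeR, against 3.48% of all genes, while 8 had an unadjusted p under 0.05 and DESeq2 called 3. The median nuclear difference was 0.23 against 0.01. These counts changed with the libraries included. Without AGO1/2 passage 11 edgeR called 18 of the 30 genes in the cytoplasm and 13 in the nucleus, and without AGO1/2 passage 9, AGO1/2 passage 10, AGO1/2/3 passage 11 or AGO1/2/3 passage 12 it called 0 in the cytoplasm. The 3 cytoplasmic calls thus rested on all of these libraries.

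Over the 30 genes, the AGO1/2 libraries were spread more widely than those of any other group, and in the same order for nearly every one. Passage 10 was the lowest of the 3 AGO1/2 libraries for 28 of the 30 genes in the cytoplasm and 27 in the nucleus, and passage 11 was the highest for 28 and 26. The median coefficient of variation of the 30 genes was 24.5% in cytoplasmic and 22.9% in nuclear AGO1/2 libraries, against 6.53% to 10.3% in the other cytoplasmic groups and 4.82% to 12.7% in the other nuclear groups. The order was not counted over all genes, so it cannot be read as particular to these. Outside the list, cytoplasmic CDH1 took the same order, at 0.896, 0.681 and 1.78 TPM in AGO1/2 passages 9, 10 and 11. Nuclear EPCAM did not, at 65.6, 64.5 and 58.1 TPM. Among AGO1/2/3 libraries passage 11 was the lowest for 21 and 24 of the 30 genes. In cytoplasmic wild type, passage 27 was the lowest for 17 genes. The nuclear and cytoplasmic libraries of a passage came from the same line, so the fractions do not show the order independently.

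**Figure D4:**
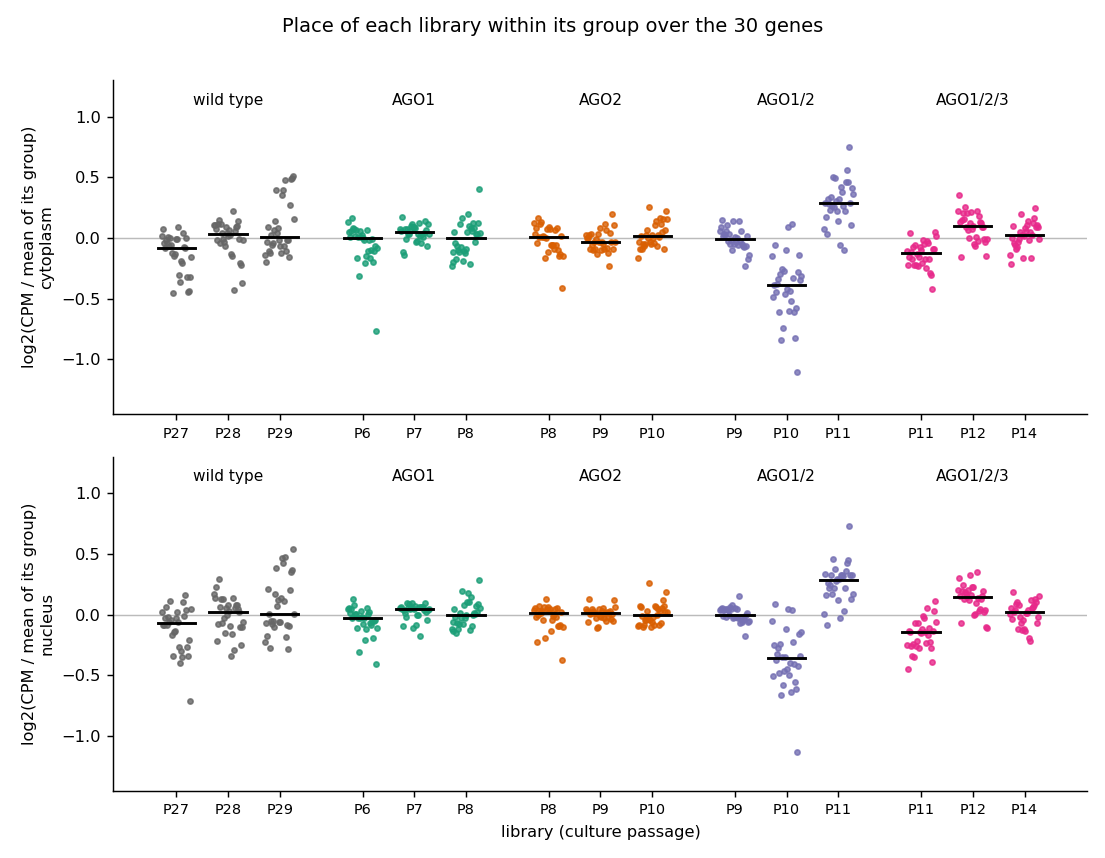
Each of the 30 genes' TMM-scaled CPM in a library, as log2 of its ratio to the mean of its group's 3 libraries, by group and passage, in the cytoplasm (top) and the nucleus (bottom), with a bar at the median of the 30 genes. In the AGO1/2 line passage 10 sits below and passage 11 above the group mean for most genes, and the median coefficient of variation there was 24.5% and 22.9%.

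The fractions were compared in wild type to see where the RNA of these genes lay. In 1 fit over all 30 libraries, 21 of the 30 genes were called between nuclear and cytoplasmic wild type, 2 higher and 19 lower in the nucleus, where 76.8% of 20104 genes were called (39.6% higher and 37.3% lower). ACACA (0.92; adjusted p = 3.78e-05) and NPC1 (0.36; adjusted p = 0.0336) were higher in nuclear RNA, and INSIG1 was the lowest, at -1.32 (adjusted p = 7.71e-06). The median of the 30 genes was -0.59 against 0.04 over all genes. The direction depended on scale: on log2(TPM + 1) limma gave 10 higher and 3 lower, with a median of 0.06 against 0.29 over all genes, and HMGCS1 turned to 0.71 and LSS to 0.60, whereas INSIG1 stayed lower at -0.61. These values are shares of each fraction's RNA and not amounts per cell.

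Whether a knockout line differed from wild type by the same amount in both fractions was tested with an interaction term over the 30 libraries. For AGO1/2 cells 14 of the 30 genes were called, all with a larger nuclear change, where 36.5% of all genes were called and 19.6% in that direction. ACLY had the largest difference, at 1.09 (adjusted p = 1.79e-05), and the median of the 30 genes was 0.47 against -0.04 over all genes. The count was 9 without cytoplasmic AGO1/2 passage 10 or cytoplasmic wild-type passage 28 and 8 without nuclear AGO1/2 passage 11. For AGO1/2/3 cells 7 were called, all in the same direction (all genes 22.7%, and 11.7% in that direction), with a median of 0.36 against -0.03. They were ACLY (0.66; adjusted p = 0.00581), CYP51A1 (0.85; adjusted p = 0.000798), DHCR7 (0.82; adjusted p = 0.00586), MSMO1 (0.75; adjusted p = 0.018), SC5D (0.44; adjusted p = 0.0146), SCAP (0.39; adjusted p = 0.00313) and SQLE (0.74; adjusted p = 0.000943). INSIG1 was not called in either test. In simulated data with 200 genes changed, drawn from all genes, the AGO1/2/3 test recovered 19.7% of differences of 0.5. That share was not measured for these 30 genes. A missing call does not show equal changes.

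In AGO2 cells SCAP alone was called (0.33; adjusted p = 0.0342; all genes 5.76%). This call was lost without cytoplasmic AGO2 passage 9 or 10, nuclear AGO2 passage 8 or 9, or wild-type passage 27 or 28 of either fraction. In AGO1 cells none was called (all genes 0.662%) by edgeR, DESeq2 or limma, with 0 of the 30 at an unadjusted p under 0.05.

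These counts depended on whether passage entered the fit as a block. The wild-type fractions of a passage deviated together and the knockout lines did not all do so. With the block 1 of the 30 genes was called in AGO1 cells and 12 in AGO2 cells, against 6.27% and 18% of all genes, while AGO1/2 cells gave 21 calls (all genes 46.4%) and AGO1/2/3 cells 21 (34.9%). INSIG1 was then called in AGO1/2/3 cells (0.30; adjusted p = 0.0193 by edgeR). Between the wild-type fractions the block gave 24 calls against 81.6% of all genes, with FASN (-0.37; adjusted p = 0.00983) and ABCA1 (0.68; adjusted p = 0.00584) among those gained.

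Other features of the nuclear fraction also differed from wild type, in the single knockouts as well. Nuclear MALAT1, a nuclear RNA, averaged 15950 CPM in wild type and 7041 and 8240 CPM in AGO1/2 and AGO1/2/3 cells, and RN7SL1, the cytoplasmic signal recognition particle RNA, averaged 12880 against 27790 and 30110 CPM. Mitochondrial MT-CO1 averaged 749.8 against 658.7 and 759.9 CPM. In AGO1 and AGO2 nuclei MALAT1 averaged 11030 and 11340 CPM, RN7SL1 17290 and 23530 CPM, and MT-CO1 773.1 and 817.7 CPM. In these lines 0 and 1 of the 30 genes were called for a difference between fractions without the block. The part of these shifts in the larger nuclear changes was not tested.

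**Figure D5:**
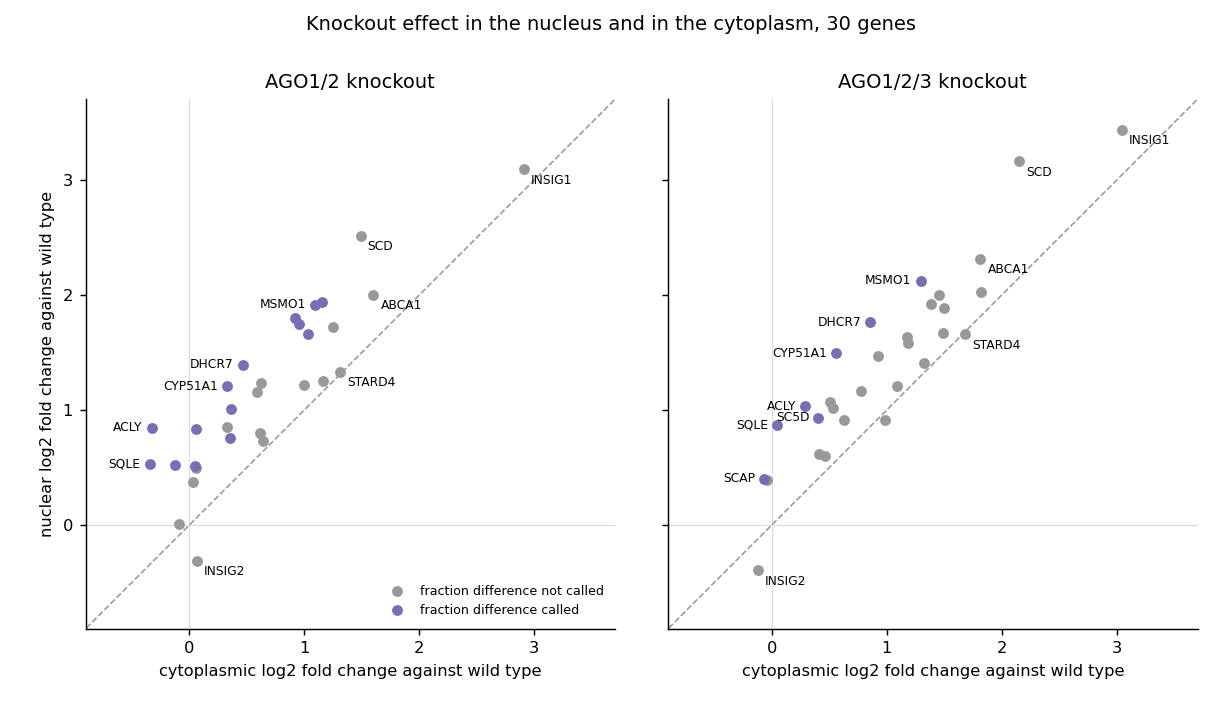
Cytoplasmic (horizontal) against nuclear (vertical) log2 fold change over wild type of the 30 genes in AGO1/2 (left) and AGO1/2/3 cells (right), with the dashed diagonal marking equal change and purple marking genes whose difference between fractions was called by edgeR. The 14 called genes of AGO1/2 and the 7 of AGO1/2/3 cells lie above the diagonal, and INSIG1 lies near it; with counts scaled by transcript length SCAP's difference turned to -0.15 and -0.12.

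Retained-intron transcripts made up less of nuclear RNA in the lines lacking more than 1 AGO gene, over all genes as well as over these. Over the 23 of the 30 genes with such transcripts, the median share of nuclear TPM assigned to them was 17.8% in wild type, 17.6% in AGO1, 13.4% in AGO2, 9.44% in AGO1/2 and 10.2% in AGO1/2/3 cells. Over all genes the medians were 22.2%, 19.9%, 17.8%, 12.3% and 14.4%. All 3 libraries lay below all wild-type libraries for 17 of 23 genes in AGO1/2 and 18 of 23 in AGO1/2/3 cells, where 65.8% and 57.2% of 7057 genes did so. INSIG1 went from 17.2% to 6.36% and 6.51%, whereas SREBF1 stayed at 52.8%, 50.4% and 54.0%. The cytoplasm did not share this fall. There the median share of the 23 genes was 0.511% in wild type, 2.03% in AGO1/2 and 1.42% in AGO1/2/3 cells, and 1.85%, 2.11% and 1.87% over all genes. All 3 cytoplasmic libraries lay above wild type for 8 of 23 genes in AGO1/2 and 4 of 23 in AGO1/2/3 cells (13.4% and 8.82% of all genes), and below it for 0. Salmon's division of reads among the annotated isoforms sets these shares, and no junction read was counted here.

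A further 25 genes of the same pathways, also listed with earlier results of these data known, were counted whichever way they moved. In the cytoplasm of the 4 lines, in the same order, 4, 4, 12 and 16 of them were called higher and 2, 0, 1 and 1 lower, where 12.4%, 16.1%, 49.2% and 38.7% of all genes were called. In the nucleus 8, 13, 20 and 20 were called higher and 1, 0, 0 and 0 lower, against 29.9%, 40.2%, 67.6% and 58.6% of all genes. The counts in cytoplasmic AGO2 (4 of 25), cytoplasmic AGO1/2 (13 of 25) and nuclear AGO1 cells (9 of 25) were thus close to the share of all genes called in either direction. By direction, cytoplasmic AGO1/2 cells gave 12 higher and 1 lower, where 23.9% and 25.4% of all genes were. ABCG1, an LXR-induced exporter of cholesterol to high-density lipoprotein, stood at 0.706, 1.06 and 1.88 CPM in cytoplasmic wild type, 4.20, 3.26 and 6.47 in AGO1/2 and 6.68, 4.97 and 7.34 in AGO1/2/3 cells. No library of these lines overlapped wild type, and ABCG1 rose by 1.93 (adjusted p = 0.000156) and 2.38 (adjusted p = 3.89e-05). In AGO1 cells, where ABCA1 fell, ABCG1 was at -0.46 in the cytoplasm and -0.59 in the nucleus and was not called. NR1H2, which encodes LXR beta, rose by 1.1 and 1.01 in cytoplasmic AGO1/2 and AGO1/2/3 cells.

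The desaturase FADS1 rose by 1.01 and 1.31, and LPIN1, a phosphatidate phosphatase known as an SREBP target, by 1.17 and 1.58, in the cytoplasm of AGO1/2 and AGO1/2/3 cells. In the nucleus ACSL3, an acyl-CoA synthetase, rose by 1.46 and 1.67, FADS2 by 1.24 and 1.40, and NPC2, the partner of NPC1 in lysosomes, by 1.69 and 1.39. Of the 7 genes of SREBP cleavage and sterol-dependent degradation, 2 and 3 rose and 1 and 1 fell in cytoplasmic AGO1/2 and AGO1/2/3 cells, where 49.2% and 38.7% of all genes were called, with medians of 0.09 and -0.02. The gene that fell was RNF139, a ubiquitin ligase of the endoplasmic reticulum, which fell by 0.44 and 0.50.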

How the data were processed

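RNA-seq of nuclear and cytoplasmic RNA from 5 HCT116 genotypes gave 30 libraries, and all were used. The labels list 38 samples, of which the 8 eCLIP samples were not used here. The authors removed ribosomal RNA, made stranded total RNA libraries and read both ends of each fragment. The submitters' processing notes name hg38, STAR 2.5.3a and Salmon 0.11.0. The estimated counts deposited by the authors are reads that Salmon divided among transcripts, with no scaling between libraries. The TPM values deposited by the authors divide those reads by effective transcript length and scale each library to a fixed total. A rise in a few abundant RNAs therefore lowers all other TPM, and a shift toward shorter transcripts moves counts and TPM apart.

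Of 200401 transcripts, 97.82% were matched by Ensembl identifier to GENCODE 44 (GRCh38), and the 4361 without a match held 2.23% to 4.01% of reads. Counts were summed per gene, rounded, scaled by TMM factors, filtered (filterByExpr, minimum count 10) and tested with edgeR 4.0.16 (quasi-likelihood, Benjamini-Hochberg, R 4.3.3). The 15 libraries of a fraction shared 1 fit, and fractions were compared in 1 fit of all 30, whose CPM scale is not that of the separate fits. Tests with limma 3.58.1, DESeq2 1.42.0, length-scaled counts, other size factors, no filter, each library left out and a replicate block were the alternatives. Passage numbers were checked for pairing of the fractions by correlating deviations from the group means: in wild type r was 0.156, 0.148 and 0.402 for passages 27, 28 and 29, all over the limit of 0.1 set for pairing, and the knockout lines did not all pass it. Data were simulated from these libraries with 200 randomly drawn genes changed, far fewer than were called in the real comparisons. There edgeR recovered 41.3%, 61.4% and 85.1% of changes of 0.5, 1 and 2 (log2) among 17605 genes of the cytoplasmic AGO1/2/3 comparison. The nuclear AGO1/2/3 comparison recovered 33.3%, 75% and 88.4%, and the difference between fractions in AGO1/2/3 cells 19.7%, 50% and 63.8%. Python 3.11.15, pandas 2.3.3 and numpy 2.4.6 were also used.

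The 30 genes and all other lists were chosen with earlier results of these data known. Values in every library were given for SREBF1, SREBF2, SCAP, INSIG1, INSIG2 and ABCA1 and for the 2 genes of each other role with the largest cytoplasmic AGO1/2/3 change, and the largest called change in each direction of each comparison was named. SQLE, ACLY and MYLIP were added where few genes were called. For another pathway gene the bar for naming was a called log2 change of at least 1, apart from RNF139, which was chosen after its values were seen.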

Additional observations from a re-analysis of the deposited data

Results flagged for a closer look

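These genes differed between the fractions in how far a knockout line lay from wild type, by the interaction term of edgeR at an adjusted p of at most 0.05. Each value is the nuclear minus the cytoplasmic log2 fold change over wild type. In AGO2 cells the 1 such gene was SCAP, at 0.33, where 5.76% of all genes were called. This call was lost with most of the libraries left out 1 at a time. In AGO1/2 cells the mevalonate enzymes were HMGCS1 (0.80), IDI1 (0.71), FDPS (0.70), PMVK (0.57), MVD (0.57) and ACAT2 (0.55). The sterol enzymes were DHCR7 (0.85), CYP51A1 (0.81), SQLE (0.79), MSMO1 (0.74), FDFT1 (0.71) and SC5D (0.33), with SCAP at 0.39 and ACLY at 1.09. In AGO1/2/3 cells they were CYP51A1 (0.85), DHCR7 (0.82), MSMO1 (0.75), SQLE (0.74), ACLY (0.66), SC5D (0.44) and SCAP (0.39). These were 23.3% of the 30, near the 22.7% of all genes called, though all lay in the direction of 11.7% of all genes. For AGO1/2 cells 46.7% of the 30 were called, against 36.5% of all genes. With length-scaled counts SCAP's difference turned to -0.15 in AGO1/2 and -0.12 in AGO1/2/3 cells. The 3 knockout comparisons share the wild-type libraries, and whether the AGO1/2 and AGO1/2/3 differences themselves differ was not tested.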

How the results depend on the processing

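With 1 library left out the calls out of 30 numbered, for the 4 lines against wild type in the order used above, 6 to 12, 5 to 9, 16 to 22 and 21 to 24 in the cytoplasm and 17 to 22, 18 to 22, 26 to 28 and 28 to 30 in the nucleus. AGO1/2/3 against AGO1/2 gave 0 to 18 in the cytoplasm and 0 to 13 in the nucleus, AGO2 against AGO1 gave 2 to 3 and 3 to 4, the wild-type fractions 19 to 20, and the differences between fractions 0, 0 to 1, 8 to 18 and 5 to 9. Of 5481 values for single genes under all alternatives, 4690 kept their direction and their side of the threshold, 174 turned sign with no call in either fit, 406 lost a call, 173 gained one and 38 turned sign where either fit made a call.

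Without the low-count filter the calls numbered 15 in cytoplasmic AGO2, 6 and 7 between AGO1/2/3 and AGO1/2 in the cytoplasm and nucleus, 11 in nuclear AGO2 against AGO1, and 0 in AGO2 and 15 in AGO1/2/3 cells for the difference between fractions. That difference in AGO2 cells also gave 0 with RLE size factors, length-scaled counts, DESeq2 and limma. DESeq2 called 8 and 3 between AGO1/2/3 and AGO1/2. With limma on log2(TPM + 1) there were 4, 2 and 2 in cytoplasmic AGO1, AGO2 and AGO2 against AGO1, 11 and 3 in nuclear AGO2 and AGO2 against AGO1, 13 between the wild-type fractions and 22 for AGO1/2 between fractions. On log2(TPM + 0.1) there were 7, 2 and 3 in cytoplasmic AGO1, AGO2 and AGO2 against AGO1, 6 in cytoplasmic AGO1/2/3 against AGO1/2, 11 in nuclear AGO2 and 13 between the wild-type fractions. Fitting only the groups compared gave 0 for cytoplasmic AGO1/2/3 against AGO1/2, 13 and 17 for AGO2 against AGO1 in the cytoplasm and nucleus, and 8 for AGO1/2 between fractions. The cause of these moves was not tested.

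With passage as a replicate block the wild-type fractions gave 24 calls. For the difference between fractions in the 4 lines, in the same order, the block gave 1, 12, 21 and 21 calls.

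On the TPM scales these changes turned sign, given for a pseudocount of 0.1 and of 1. In cytoplasmic AGO1/2 cells they were CYP51A1 (-0.065 and -0.062), DHCR7 (-0.10 and -0.094) and SC5D (-0.046 and -0.040), called by edgeR only, and FDPS (-0.40 and -0.39), HSD17B7 (-0.42 and -0.34) and SCAP (-0.29 and -0.27), called on TPM only. In nuclear AGO2 cells they were ACACA (-0.059 and -0.058), NPC1 (-0.13 and -0.13) and SCAP (-0.23 and -0.21). Nuclear SCAP turned to -0.064 and -0.0605 in AGO1/2 and to -0.34 and -0.32 in AGO1/2/3 cells, or to -0.085 in AGO1/2/3 cells with length-scaled counts. Its difference between fractions turned to -0.15 in AGO1/2 and -0.12 in AGO1/2/3 cells with length-scaled counts, and to -0.061 and -0.061 on TPM in AGO1/2/3 cells. Between wild-type fractions HMGCS1 turned to 0.76 and 0.71, LSS to 0.68 and 0.60, SCAP to 0.33 and 0.31, SREBF2 to 0.20 and 0.20, and INSIG2 to 0.022 and 0.014. With 1 library left out NPC1 in nuclear AGO1 cells lay between -0.11 and 0.22, and at 0.22, without wild-type passage 29, it was called.

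Wild-type libraries were the shallowest and ABCA1 in AGO1 cells rested on fewer than 100 reads a library. Each group held 3 passages of 1 line, and an exact permutation test of 3 against 3 cannot go below 0.1.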

Other observations

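Wild-type passage 29 stood apart from passages 27 and 28 for some of the 30 genes and not for others. In cytoplasmic RNA SREBF1 stood at 84.1 CPM in passage 29 against 53.3 and 59.9 in the other wild-type libraries. SREBF2 stood at 154.6 against 91.0 and 106.0 CPM, STARD4 at 31.1 against 16.3 and 19.2, ABCA1 at 3.53 against 1.97 and 1.91, and INSIG2 at 17.9 against 11.1 and 9.54. INSIG1 did not share this place, at 19.7 CPM in passage 29 against 18.0 and 23.9, nor did HMGCS1, at 36.2 against 43.8 and 44.7. Nuclear passage 29 was also the highest wild-type library for SREBF1, SREBF2, STARD4, ABCA1 and INSIG2. Over the 30 genes, passage 29 was the highest cytoplasmic wild-type library for 14 and the lowest for 10.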
